A study of Mus musculus with 6 samples.

Results

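Liver RNA was examined for 9 regulators of transcription that take part in fasting and stress responses: the cyclic AMP-regulated genes Crem and Nr4a3, the zinc finger factors Klf4 and Zeb1, the leucine zipper repressor Bach2, the nuclear receptor coactivator Pnrc1, the Mediator cyclin Ccnc, the p53-induced gene Tp53inp1 and the mitochondrial regulator Nrf1. They were chosen by symbol from the 55357 rows of the deposited count table, on the ground that their genes lie near the start of chromosome 4, 6 or 18, where positions hardly differ between the genome builds GRCm38 and GRCm39. All 9 were found, Tp53inp1 under the symbol Trp53inp1 that is used from here on, and 8 of them passed the filter on low counts; Nr4a3 did not. The choice used no level and no difference between the groups, but it was made with earlier results of these data known.

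The samples were livers of 6 C57BL/6 mice (C57BL/6N in the methods) whose gut microbes had been depleted with an antibiotic cocktail (ABX mice), with 1 library per mouse. By the study's methods, the drinking water held gentamicin, sulbenicillin, cephalosporin and amphotericin B, each mouse was housed alone, and the age of the mice is not given there. In the NLD group (normal light-dark cycle, n = 3) 12 h of light were followed by 12 h of dark, and in the SD group (short day, n = 3) 8 h of light by 16 h of dark. Lights came on at the same hour in both groups, and all mice had been fasted for a day and were killed in the late morning, so that both groups were sampled during the light phase; the labels give day 28 for all 6. Mice with intact microbes and fed mice were not analysed here, so that the antibiotics and the fast are common to both groups.

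The comparison asks whether the length of the light phase goes with another level of these regulators in the fasted liver of ABX mice. None of the 8 tested regulators had an adjusted p under 0.05 from edgeR's quasi-likelihood test, where 0.289% of all 7261 tested rows had one (21 rows) and 0.288% of the 347 tested rows at the same position (1 row). The mean level of Pnrc1 was 2.09 times as high under SD as under NLD, but its 6 libraries spanned a 7.80-fold range and the groups overlapped. Zeb1 and Trp53inp1 had higher values in each SD library than in any NLD library when libraries were scaled by TMM, though not under each other scaling, and Ccnc and Nrf1 had nearly the same mean in both groups. Levels are given in CPM, the usual unit of counts relative to library size, with that size corrected by TMM (trimmed mean of M values), a log2 fold change is that of SD over NLD, and its standard error (SE) was obtained from the change and its F statistic.

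The libraries held between 5497797 and 6932965 counts, and genes whose position is shared by both builds took 23.1% to 27.1% of these. This class holds 535 of the 21113 protein-coding rows that could be compared (2.53%), among them all 9 regulators. Outside it, a row may stand for another gene than the one it names, since the methods and the submitters' processing notes name different builds. In a principal component analysis of log2 CPM, NLD replicates 2 and 3 stood apart on the leading axis, at 75.0 and 27.7, from the other 4 libraries (-44.7 to -13.3); the differences of the regulators were also computed with each library left out. Of 14 hepatocyte markers, 4 were at 0 in all libraries, the rows labelled Ttr, Apoa1, Apob and Cyp2e1. The row labelled Alb, serum albumin, had only 2.23, 0 and 2.49 CPM under NLD and 0, 2.79 and 0 CPM under SD. Each of these rows lies outside the class, and why they are so low in liver was not tested. Pon1, a paraoxonase that the liver secretes and whose position is the same in both builds, had 14980, 17420 and 18510 CPM under NLD and 14900, 13010 and 14650 CPM under SD.

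During a fast, glucagon raises cyclic AMP in hepatocytes, and the kinase that this activates turns on CREB, a factor bound at cyclic AMP response elements. Crem and the Nr4a genes are known early targets of this route: the Crem gene has an internal promoter that yields the short repressor ICER, which damps the response, and NR4A receptors, which need no ligand, are made within a short time and act on genes of glucose production. Other regulators of the set belong to stress responses: Trp53inp1 and Klf4 are targets of p53, and BACH2 occupies MAF recognition elements, which NRF2 uses in oxidative stress. The product of Nrf1 is nuclear respiratory factor 1, which drives nuclear genes for mitochondrial proteins and is a different protein from NFE2L1, which has been given the same short name.

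Nr4a3 (ENSMUSG00000028341.10, on chromosome 4 of GRCm39 from 48045153 to 48086447, plus strand), which encodes the orphan nuclear receptor NOR-1, was at the edge of detection. Its promoter is shown because it holds the core of the cyclic AMP response element, and that of Pnrc1, which of the 8 tested regulators had the widest range over the libraries, because it holds none. Both are RefSeq sequences of GRCm38.p6 from 250 bases before to 50 bases after the start site, 5′ to 3′ on the strand of the gene, with TGACG on either strand in capitals. The start site of the Nr4a3 window is an internal one, downstream of the outermost start of the gene (48045078 in GRCm38), so that most of the window lies inside the annotated gene.
Nr4a3, chr4:48045055-48045354, plus strand: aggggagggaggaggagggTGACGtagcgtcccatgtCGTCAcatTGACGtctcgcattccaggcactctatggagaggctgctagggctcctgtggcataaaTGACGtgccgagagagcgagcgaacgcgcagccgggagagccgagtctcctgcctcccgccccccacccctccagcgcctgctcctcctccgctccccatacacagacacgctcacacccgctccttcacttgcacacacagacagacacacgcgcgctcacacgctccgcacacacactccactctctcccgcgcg
Pnrc1, chr4:33248738-33249037, minus strand: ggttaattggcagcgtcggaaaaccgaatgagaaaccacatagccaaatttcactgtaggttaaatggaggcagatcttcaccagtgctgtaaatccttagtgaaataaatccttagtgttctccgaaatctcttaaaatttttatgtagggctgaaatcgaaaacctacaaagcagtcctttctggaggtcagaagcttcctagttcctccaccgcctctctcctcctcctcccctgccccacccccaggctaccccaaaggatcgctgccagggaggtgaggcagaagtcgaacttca
The Nr4a3 window holds TGACG 4 times, at -231, -205 and -147 on the strand of the gene and at -213 on the other strand, counted from the start site. The full palindrome TGACGTCA, in which TGACG on both strands overlaps, is not among these 300 letters. In the 32851 RefSeq promoter windows of the same length, TGACG on either strand was found in 20.8%, 4 or more times in 0.231%, and TGACGTCA in 1.79%. Klf4 and Ccnc held TGACG once each, and Bach2 and both windows of Nrf1 held none. The Pnrc1 window lies around the start of the GRCm38 entry. The bases before the outer start of the longer GRCm39 model (33290176) were not read. The Bach2 window lies around an internal start, deep inside the gene, and the bases before its outermost start (32238413 in GRCm38) were not read. The E-box CACGTG, found in 7.15% of all windows on either strand, was present once in that of Klf4 and in no other of those read. These motifs and both genes were picked after the matches had been counted. Windows of 6 of the 9 regulators were read. A match in letters shows no binding.

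In counts, Nr4a3 had 33, 7 and 0 in NLD replicates 1, 2 and 3 and 13, 4 and 7 in SD replicates 1, 2 and 3. That is 5.67, 1.17 and 0 CPM under NLD and 2.201, 0.587 and 1.07 CPM under SD. The highest and the lowest value both came from the NLD group, which enclosed the SD group. The difference was within the spread between mice (p = 0.8, two-sided exact permutation test on CPM, 3 against 3 mice), and the filter on low counts left Nr4a3 out of the test across genes; with no filter its log2 fold change was -0.83 (SE 1.24, adjusted p = 0.850 from edgeR). Nr4a3 passed the filter when NLD replicate 2, NLD replicate 3, SD replicate 2 or SD replicate 3 was left out, with log2 fold changes of -1.13, -1.40, -0.48 and -0.71 and adjusted p between 0.860 and 0.967 from edgeR. The library at 0 allows up to 3 counts, or 0.497 CPM, if each count stands for a single read; in this table a count of 4 was more common than 1, 2, 3 or 5 in each library, so it may not. Its relatives Nr4a1 and Nr4a2, whose positions differ between GRCm38 and GRCm39, were listed at 0 throughout. Of 24 NR4A and other orphan nuclear receptors, 15 were at 0 in all libraries, 4 were tested, and none of these had an unadjusted p under 0.05 by edgeR or DESeq2 (median log2 fold change -0.06).

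Crem (ENSMUSG00000063889.17, on chromosome 18 from 3260980 to 3337748, minus strand), the cyclic AMP response element modulator, had 289, 328 and 335 CPM under NLD and 340, 247 and 311 CPM under SD. Both the highest and the lowest library were from the SD group. SD over NLD came to a log2 fold change of -0.08 (SE 0.16, adjusted p = 0.894 from edgeR), with a 95% interval from -0.46 to 0.30, or a ratio of SD to NLD between 0.726 and 1.23. Counts per gene do not tell the ICER form from the longer activator forms. The long non-coding gene Gm6225 shares 788 exon bases with Crem on the opposite strand, and without a stated strand setting the reads of the pair cannot be told apart; the row of Gm6225 had at most 4.18 CPM.

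**Figure D1:**
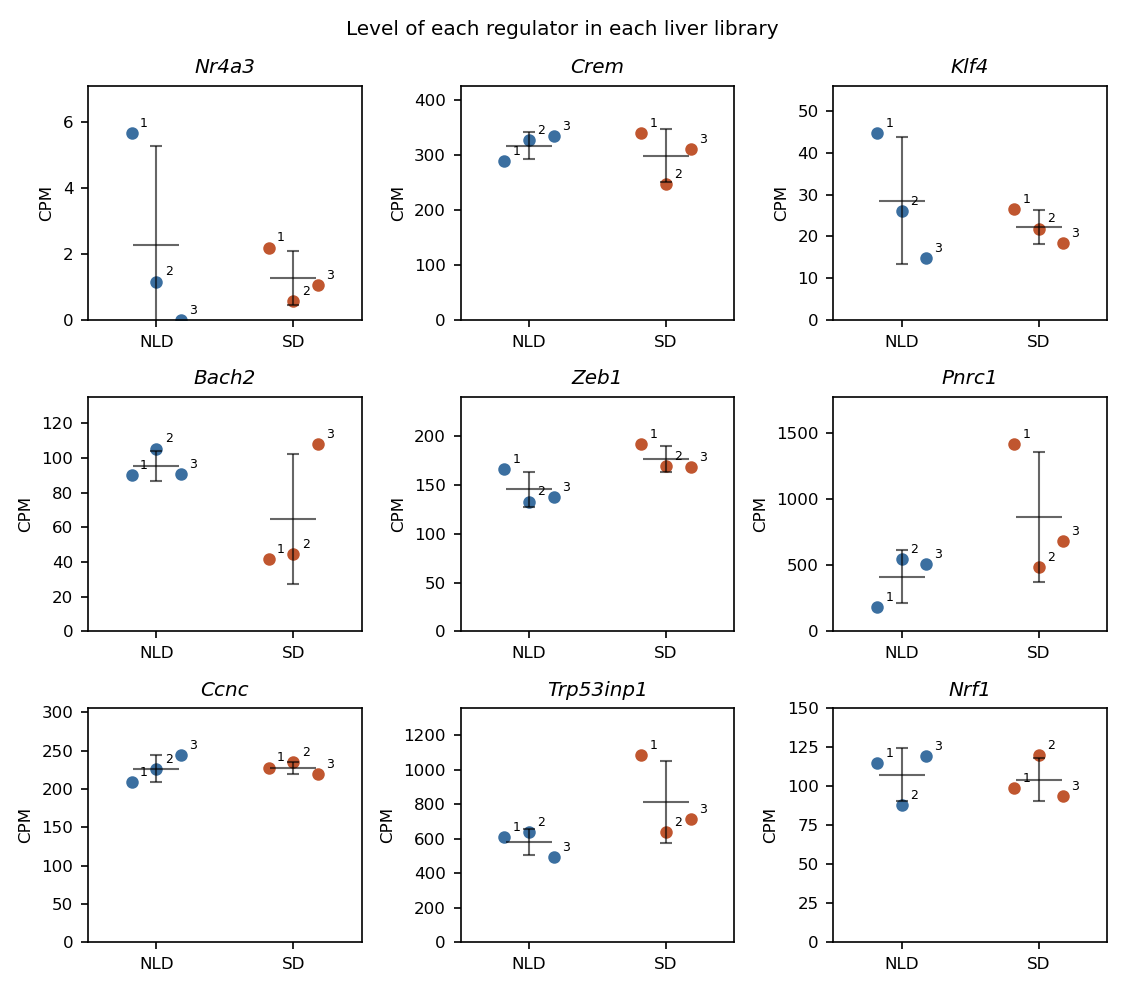
Level of each of the 9 regulators in CPM (y axis, each panel from 0 with its own scale) in the 3 NLD and 3 SD libraries (points, numbered by replicate), with the mean (horizontal line) and 1 standard deviation (error bar, cut off at 0 for Nr4a3). With this TMM scaling the groups overlapped for all but Zeb1 and Trp53inp1, which overlapped too under 2 and 4 other scalings; for Pnrc1, NLD replicate 1 (182 CPM) was the lowest and SD replicate 1 (1418 CPM) the highest of the 6.

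The remaining genes of the cyclic AMP route came from a list of 34, written from textbook knowledge. Of these, 15 were tested and 9 were at 0 in all libraries, and only Crem was at the same position in both builds. None had an adjusted p under 0.05 from edgeR, 1 was higher and 1 lower at an unadjusted p under 0.05, and the median log2 fold change was 0.03, as it was over all tested rows (0.03). The row labelled Adcy5, an adenylyl cyclase that makes cyclic AMP, had 18.4, 16.4 and 17.2 CPM under NLD and 37.8, 31.6 and 37.9 under SD, with a log2 fold change of 1.04 (edgeR adjusted p = 0.142), and was the only row of the list with an adjusted p under 0.05 from DESeq2 (0.00065). The row labelled Pde4a, a phosphodiesterase that breaks cyclic AMP down, had 9.45, 11.2 and 10.6 CPM under NLD and 4.57, 7.05 and 7.18 under SD, with a log2 fold change of -0.73 (edgeR adjusted p = 0.578). Both lie at other positions in the 2 builds.

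In the list of liver fasting genes, 11 of 33 were tested, and none passed the adjusted threshold by edgeR. At an unadjusted p under 0.05 by edgeR, 3 were higher (Plin5, Pdk4 and Lpin1), and 2 passed the adjusted threshold by DESeq2. Of the 11, 5 had a log2 fold change above 0 and 6 below, with a median of -0.08, beside 0.03 over all tested rows. Pdk4, the kinase that shuts off pyruvate dehydrogenase in fasting, was the only one of the 33 at the same position in both builds. It had 29.9, 40.3 and 21.6 CPM under NLD and 261, 69.9 and 113 CPM under SD, with no overlap between the groups under TMM. Its log2 fold change was 2.27, and its adjusted p was 0.359 by edgeR but 0.000547 by DESeq2, so that the tools did not make the same call. Like Pnrc1 and Trp53inp1, Pdk4 had its highest level in SD replicate 1. The row labelled Plin5, a lipid droplet protein, was listed at 0 in the NLD libraries and had 3.05, 11.7 and 7.94 CPM under SD (edgeR adjusted p = 0.151, DESeq2 adjusted p = 1.59e-05). Fgf21, Ppargc1a and Creb3l3, a fasting hormone, a coactivator and a liver CREB relative, had no count in any library, and each lies at a position that differs between the builds.

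Klf4 (ENSMUSG00000003032.9, chromosome 4 from 55527139 to 55532528, minus strand), a Krüppel-like factor known from stem cell and epithelial programs, had 44.7, 26.1 and 14.9 CPM under NLD and 26.6, 21.9 and 18.5 CPM under SD. The NLD libraries alone spanned a 2.99-fold range that enclosed the SD libraries. The fitted log2 fold change was -0.36 (SE 0.40, 95% interval -1.32 to 0.61, adjusted p = 0.830 from edgeR), and it was 0.12 without NLD replicate 1 and -0.67 without NLD replicate 3. Like Klf4, Nr4a3 was highest in NLD replicate 1. Of 17 Krüppel-like factors, 5 were tested, none passed the adjusted threshold by edgeR or DESeq2, and 1, the row labelled Klf9 (log2 fold change 0.92, adjusted p = 0.578 from edgeR), was higher at an unadjusted p under 0.05.

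Bach2 (ENSMUSG00000040270.17, chromosome 4 from 32238714 to 32586108, plus strand) encodes a repressor that pairs with small MAF proteins and is best known from B cells. It had 89.9, 105 and 90.5 CPM under NLD and 41.7, 44.6 and 108 CPM under SD. The NLD mice lay close together, at 95.3 ± 8.75 CPM (standard deviation, n = 3), and of the short-day mice 2 had less than any NLD mouse and SD replicate 3 had more than any. The log2 fold change was -0.56 (SE 0.38, 95% interval -1.48 to 0.37, adjusted p = 0.704 from edgeR), and the exact permutation test gave p = 0.4. Without SD replicate 3 the log2 fold change was -1.14, with an unadjusted p of 0.00114 and an adjusted p of 0.237 from edgeR; the range of the adjusted p over the alternatives was 0.237 to 0.986. The log2 fold change was -0.32 without SD replicate 1 and -0.35 without SD replicate 2. The antisense gene Bach2os, which shares 537 exon bases, had 5.67, 6.02 and 3.65 CPM under NLD and 9.48, 3.08 and 6.11 CPM under SD, in each library well below Bach2.

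Because Bach2 is a B cell gene and bulk liver holds many cell types, fewer cells of a type and less RNA per cell cannot be told apart here. Of 10 B cell markers, 4 were at 0 in all libraries, and the summed level of the list was 323 to 362 CPM under NLD and 306 to 323 CPM under SD. At the same position in both builds were Cd72, a B cell surface receptor with 86.1, 77.9 and 52.4 CPM under NLD and 71.8, 76.2 and 60.9 CPM under SD, and Pax5, the factor that defines B cells. Pax5 had 12.7, 9.03 and 4.81 CPM under NLD and 2.71, 2.50 and 2.29 CPM under SD, with a log2 fold change of -1.82 (SE 0.43, unadjusted p = 0.00435, adjusted p = 0.327 from edgeR). Its groups did not overlap, and unlike Bach2 it was low in SD replicate 3. The part of B cells in the Bach2 values was not tested. Of 25 genes of the BACH, small MAF and NRF2 route, 8 were tested, none had an unadjusted p under 0.05 by edgeR or DESeq2, 7 had a log2 fold change below 0 and 1 above, and the median was -0.20; Bach2 was the only one at the same position.

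Zeb1 (ENSMUSG00000024238.16, chromosome 18 from 5591851 to 5775467, plus strand), a repressor of epithelial genes that binds E-boxes, had 166, 133 and 138 CPM under NLD and 192, 170 and 168 CPM under SD. The lowest SD library lay just above NLD replicate 1, and the groups did not overlap when libraries were scaled by TMM, RLE or upper quartile factors but did when they were scaled on the rows at the same position or by their totals. Its log2 fold change was 0.28 (SE 0.14, 95% interval -0.06 to 0.62, unadjusted p = 0.0959, adjusted p = 0.631 from edgeR). The exact permutation test gave p = 0.1, the smallest that 3 mice against 3 allow. Without NLD replicate 1, the NLD library nearest to the SD group, the log2 fold change was 0.38 (unadjusted p = 0.0306, adjusted p = 0.296 from edgeR). Zeb1 is also known from mesenchymal cells, and Col1a2, a collagen gene of stellate cells and fibroblasts at the same position, had 128, 250 and 150 CPM under NLD and 151, 317 and 141 CPM under SD; its highest library in each group was replicate 2, which was not the highest for Zeb1. The summed level of 12 stellate cell and fibroblast markers, 7 of them at 0, was 151 to 264 CPM under NLD and 158 to 339 CPM under SD, and their part in the Zeb1 values was not tested. Of 23 genes of the ZEB and epithelial list, 8 were tested and none had an unadjusted p under 0.05 by edgeR or DESeq2. The median log2 fold change of the 8, which include Zeb1, was 0.58, beside 0.03 over all tested rows. It rests in part on uneven rows: those labelled Ocln and Grhl2 were at 0 in some libraries (SE 2.23 and 1.89). Esrp1, an epithelial splicing factor and besides Zeb1 the only one at the same position, had 39.8 CPM in SD replicate 2 and 1.36 to 4.68 CPM in the other 5 libraries.

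**Figure D2:**
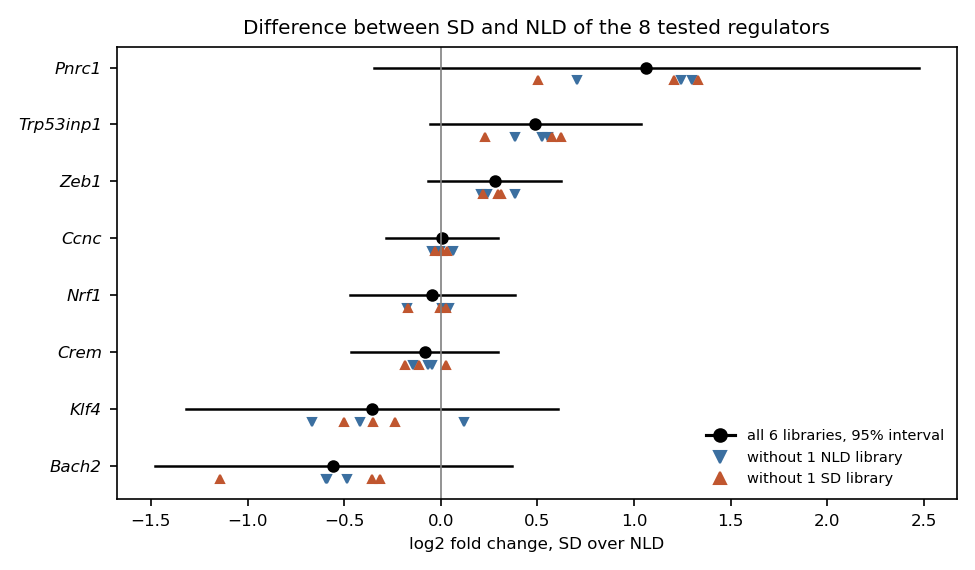
Log2 fold change of SD over NLD (x axis) of the 8 tested regulators, with all 6 libraries (black points, lines are 95% intervals) and with 1 NLD library (blue, pointing down) or 1 SD library (red, pointing up) left out. All 8 intervals include 0; the Bach2 value moved from -0.56 to -1.14 without SD replicate 3 and the Pnrc1 value from 1.06 to 0.50 without SD replicate 1.

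Pnrc1 (ENSMUSG00000040128.10, chromosome 4 from 33244989 to 33290176, minus strand) encodes a proline-rich coactivator that binds nuclear receptors, including those of steroid hormones. Its counts were 1057, 3260 and 3077 in the NLD libraries and 8372, 3306 and 4468 in the SD libraries. Scaled by library, NLD replicates 1 to 3 had 182, 545 and 510 CPM and SD replicates 1 to 3 had 1418, 485 and 682 CPM. NLD replicate 1 was the lowest of the 6 in a group that spanned 3.00-fold, SD replicate 1 the highest in a group that spanned 2.92-fold, and the other 4 libraries lay between 485 and 682 CPM with the groups overlapping. The fit gave a log2 fold change of 1.06 (SE 0.57, 95% interval -0.35 to 2.47, adjusted p = 0.642 from edgeR), which is a ratio between 0.787 and 5.55. It was 0.50 without SD replicate 1 and 0.71 without NLD replicate 1. DESeq2 gave an unadjusted p of 0.0315 and an adjusted p of 0.416. The libraries with the lowest and the highest Pnrc1 level were the smallest of the 6 (5497797 and 5548753 counts). They also had the largest TMM factors, 1.06 and 1.07. NLD replicate 1 stayed the lowest and SD replicate 1 the highest library under each other scaling. The log2 fold change was 1.05 by RLE, 1.06 by upper quartile factors, 1.07 scaled on rows at the same position and 1.17 with no normalization factors. The part of depth in the Pnrc1 values was not tested. The GRCm39 model of Pnrc1 reaches 41389 bases farther upstream than the GRCm38 entry of RefSeq.

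Pnrc1 was read with 27 nuclear receptor coregulators, of which 11 were tested and only Pnrc1 was at the same position. The median log2 fold change of the 11 was 0.16.

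Ccnc (ENSMUSG00000028252.21, chromosome 4 from 21727640 to 21759922, plus strand) encodes cyclin C, the partner of CDK8 in the kinase module of Mediator, the complex that links transcription factors to RNA polymerase II. Its range over the 6 libraries was the narrowest of the 9, at 1.17-fold, with 209, 226 and 245 CPM under NLD and 228, 235 and 220 CPM under SD, a coefficient of variation of 7.90% and 3.50%. The SD libraries all lay within the range of the NLD libraries. For the difference, the log2 fold change was 0.01 (SE 0.12, adjusted p = 0.990 from edgeR), and its 95% interval from -0.28 to 0.30 limits a difference to ratios between 0.822 and 1.23. Its sign was set by the scaling, 0.0073 by TMM and -0.0039 by RLE. Tstd3, a neighbour on the opposite strand that shares 315 of the 6401 exon bases of Ccnc, had 304, 470 and 387 CPM under NLD and 227, 360 and 279 CPM under SD, a pattern that Ccnc did not follow. Of 33 Mediator genes, 11 were tested and none had an unadjusted p under 0.05 by edgeR, with 1 by DESeq2 and a median log2 fold change of -0.12; Ccnc was the only one at the same position.

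Trp53inp1 (ENSMUSG00000028211.12, chromosome 4 from 11156412 to 11175230, plus strand) encodes a nuclear protein induced by p53 and by cell stress that takes part in autophagy. Its levels were 608, 637 and 493 CPM under NLD and 1085, 640 and 713 CPM under SD. SD replicate 2 lay less than 3 CPM above NLD replicate 2, so that the groups just failed to overlap by TMM and overlapped under the other 4 scalings (RLE, upper quartile, rows at the same position, library totals). The log2 fold change was 0.49 (SE 0.23, 95% interval -0.06 to 1.04, unadjusted p = 0.0723, adjusted p = 0.610 from edgeR), and the exact permutation test gave p = 0.1. Without SD replicate 1 the log2 fold change was 0.23 (edgeR adjusted p = 0.955). Without SD replicate 2 it was 0.62 (unadjusted p = 0.0357, adjusted p = 0.533 from edgeR). Of its 17 alternatives by edgeR or DESeq2, 4 had an unadjusted p under 0.05, and the lowest adjusted p was 0.414. Of 27 genes of the p53 pathway, 17 were at 0 in all libraries, Trp53 itself among them, and 4 were tested, of which none had an unadjusted p under 0.05 by edgeR or DESeq2. Of the immediate early and stress genes, 25 of 35 rows were at 0 and 4 were tested, with none past the adjusted threshold by edgeR or DESeq2 and 1 higher at an unadjusted p under 0.05, the row labelled Dusp1, a MAP kinase phosphatase (log2 fold change 1.07).

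Nrf1 (ENSMUSG00000058440.15, chromosome 6 from 30047892 to 30153462, plus strand) had 115, 88.0 and 119 CPM under NLD and 98.9, 120 and 93.6 CPM under SD. The groups overlapped almost fully, with means of 107 ± 16.9 and 104 ± 14.0 CPM (standard deviation, n = 3 each). The log2 fold change was -0.04 (SE 0.18, 95% interval -0.47 to 0.39, adjusted p = 0.958 from edgeR). Of the genes of the NRF1 and mitochondrial list, 7 of 33 rows were tested, none passed the adjusted threshold by edgeR or DESeq2, and 1, the row labelled Twnk (the mitochondrial helicase Twinkle), was higher at an unadjusted p under 0.05. Ndufa4 and Ndufb6, subunits of the respiratory chain at the same position, had log2 fold changes of -0.31 (adjusted p = 0.641 from edgeR) and -0.08 (adjusted p = 0.910 from edgeR).

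Set against one another per length of exon, the 9 regulators ordered as follows. In CPM per kb of exon, Pnrc1 had a median over the 6 libraries of 129, Trp53inp1 of 86.9, Ccnc of 35.5, Crem of 28.3, Zeb1 of 12.3, Nrf1 of 9.82, Bach2 of 8.99, Klf4 of 7.62 and Nr4a3 of 0.187. The ranges of Pnrc1 and Trp53inp1 overlapped, as did those of Zeb1 and Nrf1, of Nrf1 and Bach2 and of Bach2 and Klf4. The genes were not compared within each library, so an overlap of ranges does not settle the order of these neighbours. The ranges of Trp53inp1 and Ccnc, of Ccnc and Crem, of Crem and Zeb1 and of Klf4 and Nr4a3 did not overlap. The exon length counts all annotated exons of GRCm39, and a gene with many alternative exons is given too low a level by it.

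**Figure D3:**
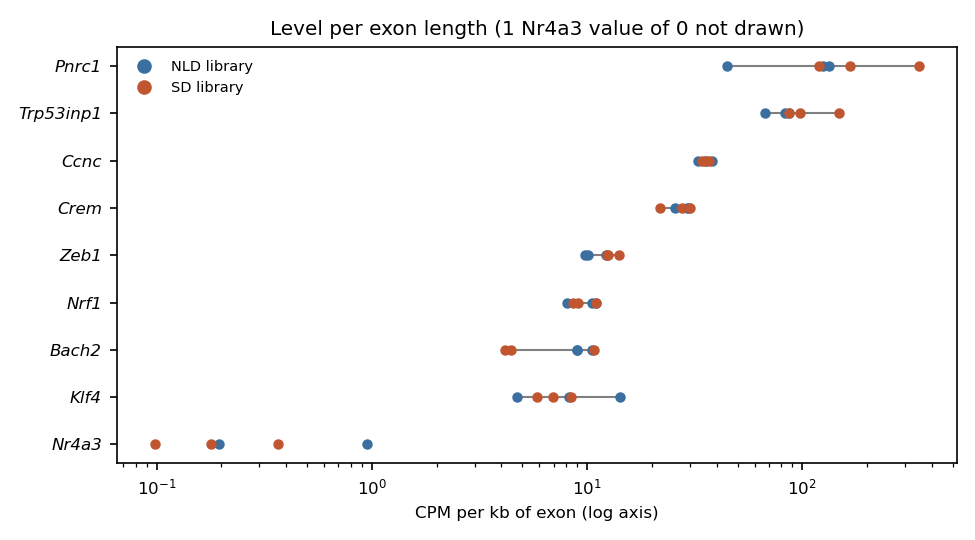
Level of the 9 regulators in CPM per kb of annotated exon (x axis, log scale) in the 3 NLD (blue) and 3 SD (red) libraries, ordered by their median, with a line from the lowest to the highest library. The medians run from 129 for Pnrc1 to 0.187 for Nr4a3, whose value of 0 in NLD replicate 3 cannot be drawn on a log axis.

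Over the 8 tested regulators, 0 had an unadjusted p under 0.05 by edgeR and 1, Pnrc1, by DESeq2. By edgeR, 8.48% of all tested rows and 13.5% of the 347 tested rows at the same position had one. By DESeq2, 721 of the 7261 tested rows had one. Higher in each SD library than in any NLD library were 2 of 8 under TMM (Zeb1 and Trp53inp1), where 9.08% of all tested rows and 13.5% of those at the same position were, and none of the 8 was lower without overlap, where 7.93% and 8.65% were. Without NLD replicate 2 or NLD replicate 3, which stood apart on the leading axis, edgeR again gave none of the 8 an unadjusted p under 0.05. The median log2 fold change of the 8 was -0.02, beside 0.03 over all tested rows, and the median of its size was 0.32 in both. Their median SE was 0.20, the same as over the rows at the same position (0.20) and smaller than over all rows (0.35). A difference of 2-fold lay outside the 95% interval for Crem, Zeb1, Ccnc and Nrf1.

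The libraries did not rank alike across the regulators. SD replicate 1 was the highest library for Crem, Zeb1, Pnrc1 and Trp53inp1 and the lowest for Bach2, and NLD replicate 1 was the lowest for Pnrc1 and Ccnc and the highest for Klf4. As a description over the 6 libraries, which share their scaling, the pair with the highest Pearson correlation of log2 CPM was Zeb1 and Trp53inp1 (0.764), followed by Pnrc1 and Trp53inp1 (0.701), and the lowest was Klf4 and Ccnc (-0.794). Among the other 346 tested rows at the same position, the one most like Crem was Baat, the enzyme that couples bile acids to amino acids (r = 0.972), with 3023, 3294 and 3394 CPM under NLD and 3448, 2386 and 2965 CPM under SD. For Pnrc1 it was Zcchc7 (r = 0.985), for Zeb1 Ubxn2b (r = 0.982), for Trp53inp1 Virma, a subunit of the RNA methylation complex (r = 0.974), for Nrf1 Nol6 (r = 0.970), for Klf4 Plekhf2 (r = 0.942), and for Ccnc Gm11808 (r = 0.934). Bach2 was most like Mup2 (r = 0.917), a major urinary protein of a cluster of nearly identical genes whose reads may be split among copies. Each r is the highest of 346 over only 6 libraries.

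The regulators were also set beside 28 other transcription and signaling regulators of the same chromosome ends, of which 23 were at the same position, 21 were tested and Dlx5 and Dlx6 were at 0. None had an adjusted p under 0.05 from edgeR, while 1 had one from DESeq2 (Chd7). By unadjusted p, edgeR put 3 under 0.05, Chd7 and Plag1 with higher values under SD and Pax5, described with Bach2, with lower ones; DESeq2 also put 3 there. Chd7, a chromatin remodeler, had 138, 110 and 176 CPM under NLD and 236, 223 and 261 CPM under SD, with a log2 fold change of 0.76 (SE 0.20, adjusted p = 0.383 from edgeR and 0.0319 from DESeq2). Plag1, a zinc finger factor, had 3.26, 3.35 and 2.82 CPM under NLD and 7.96, 6.75 and 5.19 CPM under SD, with a log2 fold change of 1.07 (edgeR adjusted p = 0.467). Of the 21, 15 had a log2 fold change above 0 and 6 below, with a median of 0.14.

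**Figure D4:**
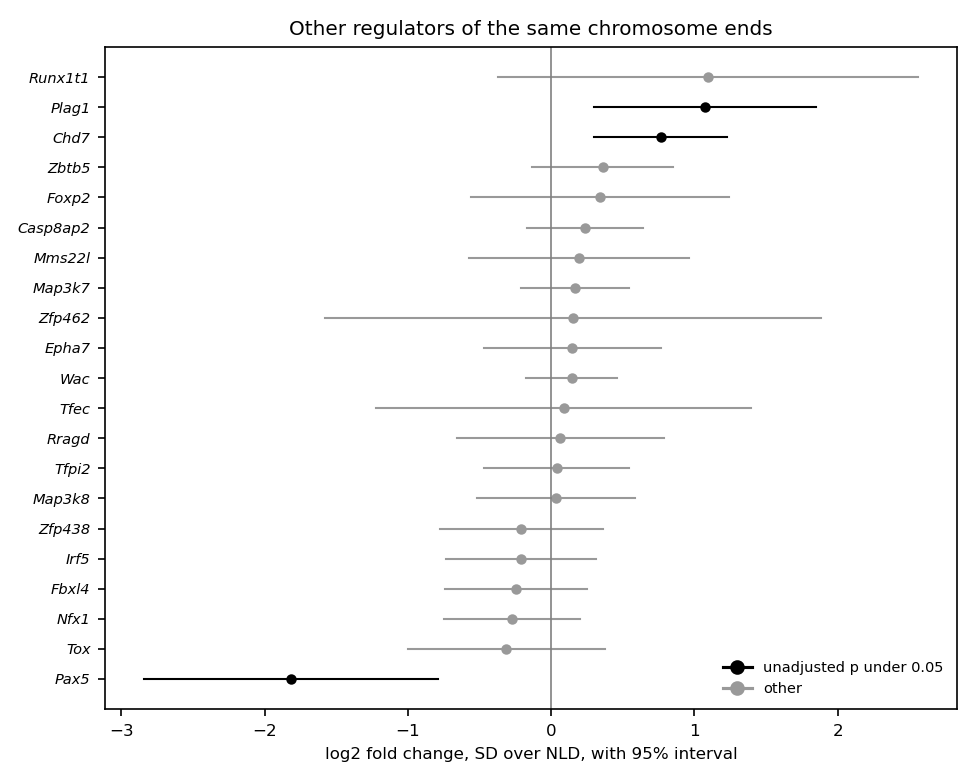
Log2 fold change of SD over NLD (x axis) with 95% intervals for the 21 tested other regulators of the same chromosome ends at the same position in both builds, ordered by the change. Black marks the 3 with an unadjusted p under 0.05 from edgeR (Plag1, Chd7 and Pax5), none of which had an adjusted p under 0.05 by that test.

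The other marker lists were read for signs of other cells in the samples. Of 12 Kupffer cell and macrophage markers 11 were at 0 in all libraries, of 8 neutrophil markers 7, of 12 T and NK cell markers 8, of 11 endothelial markers 5 and of 8 cholangiocyte markers 2. Their summed levels overlapped between the groups for T and NK cells (365 to 527 CPM under NLD and 333 to 370 CPM under SD), endothelial cells (1531 to 2135 and 1747 to 1962 CPM) and cholangiocytes (982 to 1436 and 990 to 1093 CPM). The Kupffer cell and macrophage list summed to 13.6 to 16.7 CPM under NLD and 9.10 to 13.7 CPM under SD, and the neutrophil list to at most 1.02 CPM. Nearly all of these markers lie at other positions in the 2 builds, so that a zero does not show that a cell type was absent. Of the hepatocyte markers at the same position, Cyp7a1, which catalyses the first step from cholesterol to bile acids, had 1804, 1041 and 2325 CPM under NLD and 4327, 3868 and 7047 CPM under SD, with a log2 fold change of 1.56 (edgeR adjusted p = 0.327, DESeq2 adjusted p = 0.000875).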

How the data were processed

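Liver RNA of 3 NLD and 3 SD mice was sequenced. The authors used fastp for trimming, HISAT2 for alignment and StringTie for quantification, and what they deposited are raw whole-number counts per gene; no source used here gives strand setting or read length. The methods name GRCm39 and the submitters' processing notes GRCm38 and mm10. The labels and the methods also differ in the RNA kit and the day. The test was that of edgeR 4.0.16 in R 4.3.3 (TMM, filterByExpr, robust glmQLFit, two-sided glmQLFTest, Benjamini-Hochberg adjustment over 7261 rows); DESeq2 1.42.0 was an alternative. CPM were computed with these TMM factors. Totals were 5497797 to 6932965 counts per library; a floor of 3 counts covers counting error only. The edgeR p-values set the difference between the groups against a spread between these mice that is moderated over the tested rows.

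Positions were compared between GRCm39 (54749 of 55357 rows matched by ID) and the RefSeq genes of GRCm38.p6 (by symbol). Same position means that 11 adjacent protein-coding rows had a median difference of no more than 10 bp and the row itself, at whichever of its 2 ends differed less, of no more than 2000 bp; the other end may differ by more, as it did for Crem (at its start) and Pnrc1 (41389 bp, at its end). The signed difference was used; by the sizes of the differences, tried first, 376 rows and 8 of the 9 regulators would qualify (Ccnc would not), so the definition was chosen after seeing the data. Coordinates are those of GRCm39 unless named otherwise; none was converted.

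The members and gene lists were chosen with earlier results of these data known. Named were the 9 regulators; in each list rows past the adjusted threshold and up to 4 with the smallest p, same position first; the 1 row most like each tested regulator; and up to 3 markers of a list. Adcy5, Cyp7a1 and other rows given with DESeq2 values, Alb, and the genes named at 0 were chosen after their values were seen. Transcripts of the 9 were searched for copies (at least 95% identity over 200 bases); besides antisense genes none was found. The fit was also run on simulated data with 200 changed rows. A pass was required only where the simulated spread was set well below that of these data, so it does not show how many changes the fit would miss here. Alternatives were other scalings, filters and tools, the replicate number as a block, the 10 most abundant rows left out and each library left out; no normalization factors was added after seeing the data. Libraries of a group differed beyond sampling noise (chi-square per row 30.1 to 61.4). Some genes of the lists are not reported here.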

Additional observations from a re-analysis of the deposited data

How the results depend on the processing

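The count of rows past an adjusted p of 0.05 was 21 by edgeR and 16 to 22 with other scalings, no robust estimation, a minimum of 10 counts per library, the 10 most abundant rows left out or, added after seeing the data, no normalization factors. It was 44 with no filter on low counts, 137 with DESeq2, 91 with DESeq2 and no filter, and 0 to 30 with 1 library left out, 0 without SD replicate 1, 2 or 3. With the replicate number as a block it was 0 (766 rows at an unadjusted p under 0.05). Same-numbered libraries deviated together only weakly (correlations 0.0762, 0.0686 and 0.036, against -0.0579 to -0.0136 for different numbers); each library correlated best with its own number, a hint from the data and not the design, and the pairing was not used.

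Of 136 values of the 8 regulators under the alternatives, 0 had an adjusted p under 0.05 (lowest 0.237) and 7 an unadjusted one, 4 of them for Trp53inp1. Bach2, Zeb1, Pnrc1 and Trp53inp1 kept their sign in all. For Ccnc the log2 fold change was -0.00390 by RLE, -0.00408 scaled on rows at the same position, -0.00394 by DESeq2, -0.00462 by DESeq2 with no filter, -0.00019 with the 10 most abundant rows left out, and -0.0481 to 0.0655 with 1 library left out. For Nrf1 it was 0.00228 with no normalization factors and -0.176 to 0.0402 with 1 library left out. With 1 library left out, Crem was at -0.184 to 0.0269 and Klf4 at -0.665 to 0.122. The cause was not tested. At these depths a count of 0 and a low level cannot be told apart for Nr4a3.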
